A study of Mus musculus with 32 samples.

Results

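The chemokine and chemokine receptor genes of the mouse were followed in bulk RNA-seq libraries of injured spinal cord. Their rows were found by symbol: Ccl, Cxcl, Ccr or Cxcr followed by a number and at most 1 letter, plus Cx3cl1 and Cx3cr1. This gave 55 of the 23420 genes in the authors' table of read counts, 37 ligands and 18 receptors. The 32 libraries were made from total RNA of C57BL/6J mice aged 8 to 12 weeks, from snap-frozen cord reaching about 2 to 3 mm to either side of the lesion. The labels give 4 treatments. Sham libraries numbered 3 at 3 days and 3 at 35 days. SCI+Ctrl libraries, here injured controls (SCI is spinal cord injury), numbered 3 at 3 days, 3 at 14 days and 4 at 35 days. SCI+Gsx1 libraries numbered 3, 3 and 4 at the same times, and SCI+Nkx6.1 libraries 3 at 3 days and 3 at 35 days. The 32 libraries include no sham or SCI+Nkx6.1 library at 14 days. Gsx1 and Nkx6.1 are homeodomain transcription factors of the developing spinal cord. The sources used here do not give how they were delivered, how the cord was injured or what the injured controls received. Whether replicates are separate animals is not stated in the labels, and p-values therefore measure only the spread between these libraries, which may be technical.

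Chemokines are small secreted proteins that attract leukocytes along a gradient, and they signal through receptors with several membrane-spanning segments that couple to Gi proteins. They are named by the spacing of their first cysteines (CC, CXC or CX3C). Inflammatory chemokines are switched on by NF-kB and interferon signalling in injured or infected tissue, while homeostatic ones such as Cxcl12 are made without a stimulus and position cells in development and in lymphoid organs. In the spinal cord, fractalkine (Cx3cl1) is made mainly by neurons and its receptor Cx3cr1 mainly by microglia, and Ccl2 draws blood monocytes that carry Ccr2.

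The start regions of 4 inducible CXC ligands are shown because they carry the motifs of the pathways named above, and because all 4 genes lie on chromosome 5. The sequences are the 250 bases before the RefSeq start (GRCm38.p6), on the strand of the gene: Cxcl1 at chr5:90890995-90891244 (plus), Cxcl2 at chr5:90903649-90903898 (plus), Cxcl3 at chr5:90785851-90786100 (plus) and Cxcl10 at chr5:92348890-92349139 (minus). Capitals mark matches on either strand to the NF-kB motif (GGGA and TTCC with any 2 bases between them) and, in Cxcl10, also to the interferon response element (GAAA and GAAA with any 2 bases between them).
Cxcl1: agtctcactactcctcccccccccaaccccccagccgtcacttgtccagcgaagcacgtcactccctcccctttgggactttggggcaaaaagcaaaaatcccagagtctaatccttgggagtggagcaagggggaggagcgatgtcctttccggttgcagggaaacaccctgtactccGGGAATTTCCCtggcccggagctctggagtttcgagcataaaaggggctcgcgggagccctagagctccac
Cxcl2: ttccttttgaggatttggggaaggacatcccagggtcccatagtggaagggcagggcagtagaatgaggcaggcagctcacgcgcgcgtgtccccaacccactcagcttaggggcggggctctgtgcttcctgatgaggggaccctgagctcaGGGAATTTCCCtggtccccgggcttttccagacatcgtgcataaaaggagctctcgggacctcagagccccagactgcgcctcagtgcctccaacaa
Cxcl3: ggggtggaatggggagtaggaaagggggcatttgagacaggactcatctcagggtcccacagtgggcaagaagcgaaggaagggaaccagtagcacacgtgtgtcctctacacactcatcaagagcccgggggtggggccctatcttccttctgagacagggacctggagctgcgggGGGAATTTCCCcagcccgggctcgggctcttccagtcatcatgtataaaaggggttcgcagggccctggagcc
Cxcl10: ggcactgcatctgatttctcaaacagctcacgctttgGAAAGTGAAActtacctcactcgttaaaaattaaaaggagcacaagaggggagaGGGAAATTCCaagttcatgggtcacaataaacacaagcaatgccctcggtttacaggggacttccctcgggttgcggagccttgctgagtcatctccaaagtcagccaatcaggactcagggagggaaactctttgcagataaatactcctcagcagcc

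In the Cxcl1, Cxcl2 and Cxcl3 windows, matches on both strands overlapped to give the same 11 letters, GGGAATTTCCC, at 71 to 61, 97 to 87 and 73 to 63 bases before the start. In Cxcl10 the NF-kB match lay 159 to 150 bases and the interferon element 213 to 204 bases before the start. Of the 55 members, 39 had a start region in the RefSeq table. The NF-kB motif was present in 6 of these 39 (Ccl1, Ccr3, Cxcl1, Cxcl2, Cxcl3 and Cxcl10) and in 1.36% of the 27025 genes' windows of this length. The interferon element was present in 3 of the 39 (Ccl19, Cxcl10 and Cxcl14) and in 3.46% of all windows. The other motifs searched were a looser NF-kB motif (GGG and TTCC with any 3 bases between them), which includes every match of the first one (9 members, 5.31% of all windows), the TATA box TATAAA (11 members, 14.3%), the AP-1 site TGANTCA (6 members, 7.82%) and the C/EBP site TTGCNNAA (5 members, 10.8%), each on both strands. The promoters and motifs shown were chosen after the matches were seen, and a match is a description of the letters only.

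The total count per library was 10.8 to 19.5 M reads (median 14.6 M). Levels are given in CPM, the raw count per M (mega) reads of the library's total after TMM scaling, a factor that adjusts for differences in composition. The genes of the factors could not be used to check the labels. Gsx1 had 1 to 4 raw counts in the SCI+Gsx1 libraries at 3 days, 3 to 10 at 14 days and 3 to 6 at 35 days, against 3 to 7, 1 to 3 and 0 to 4 in injured controls. Nkx6-1 had 3.62 to 6.11 CPM in the SCI+Nkx6.1 libraries at 3 days and 7.9 to 12.4 CPM at 35 days, against 7 to 8.98 and 9.79 to 12.6 CPM in controls. The treatment groups are therefore named as the labels give them throughout. Xist, the RNA of the inactive X chromosome, was above 100 CPM in 7 libraries, and 2 of these, the 3-day sham replicate 1 and the 35-day injured control replicate 4, also held the Y-linked Ddx3y above 10 CPM. Without those 2 libraries the counts of chemokine and receptor genes called below were 23 at 3 days and 20 at 35 days, in place of 25 and 22. The calls lost included Ccl27a, Cxcl11 and Cxcr3 at 3 days (edgeR adjusted p 0.0598 to 0.0692) and Cx3cl1 at 35 days (edgeR adjusted p = 0.212), and Cxcr7 was called at 3 days in that setting. Only 1 sham library at 3 days remained when all 7 were left out, and the counts were then 13 and 11. Markers of neurons, astrocytes and oligodendrocytes, the cells that define cord, were present in every library. Summed markers of monocytes and macrophages (7 genes) were 72 to 93.1 CPM in sham and 804 to 1680 CPM in injured controls at 3 days, and 39.8 to 58.1 against 883 to 1820 CPM at 35 days. In bulk RNA, fewer cells of a type and less RNA per cell cannot be told apart.

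Differences were tested with edgeR's quasi-likelihood test over all 16314 genes with enough reads, and a gene is said to have risen or fallen where its p-value, adjusted by the Benjamini-Hochberg method over all those genes, was under 0.05. Of the 55 members, 40 were tested (26 ligands and 14 receptors) and 15 had too few reads. At 3 days 23 of the 40 rose after injury and 2 fell, and at 35 days 21 rose and 1 fell. Among all genes tested, 35.5% were called at 3 days (19.5% higher and 16% lower) and 36.8% at 35 days (21.3% higher and 15.5% lower). The median log2 fold change of the 40 members was 2.70 at 3 days and 1.95 at 35 days, against 0.01 and 0.04 over all genes. Of the tested members, 17 had a mean of under 5 raw counts per sham library. These could enter the test only through a group in which they were high, so counts over the tested members describe them and are not support for a change of the family. At 3 days 13 of these 17 and 10 of the other 23 rose, and at 35 days 11 and 10 rose. The line of 5 is below the filter's minimum count of 10, so the other 23 are not free of this selection. They include Cxcl10 and Ccr1, with sham means of 5.5 and 7.5 raw counts.

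**Figure D1:**
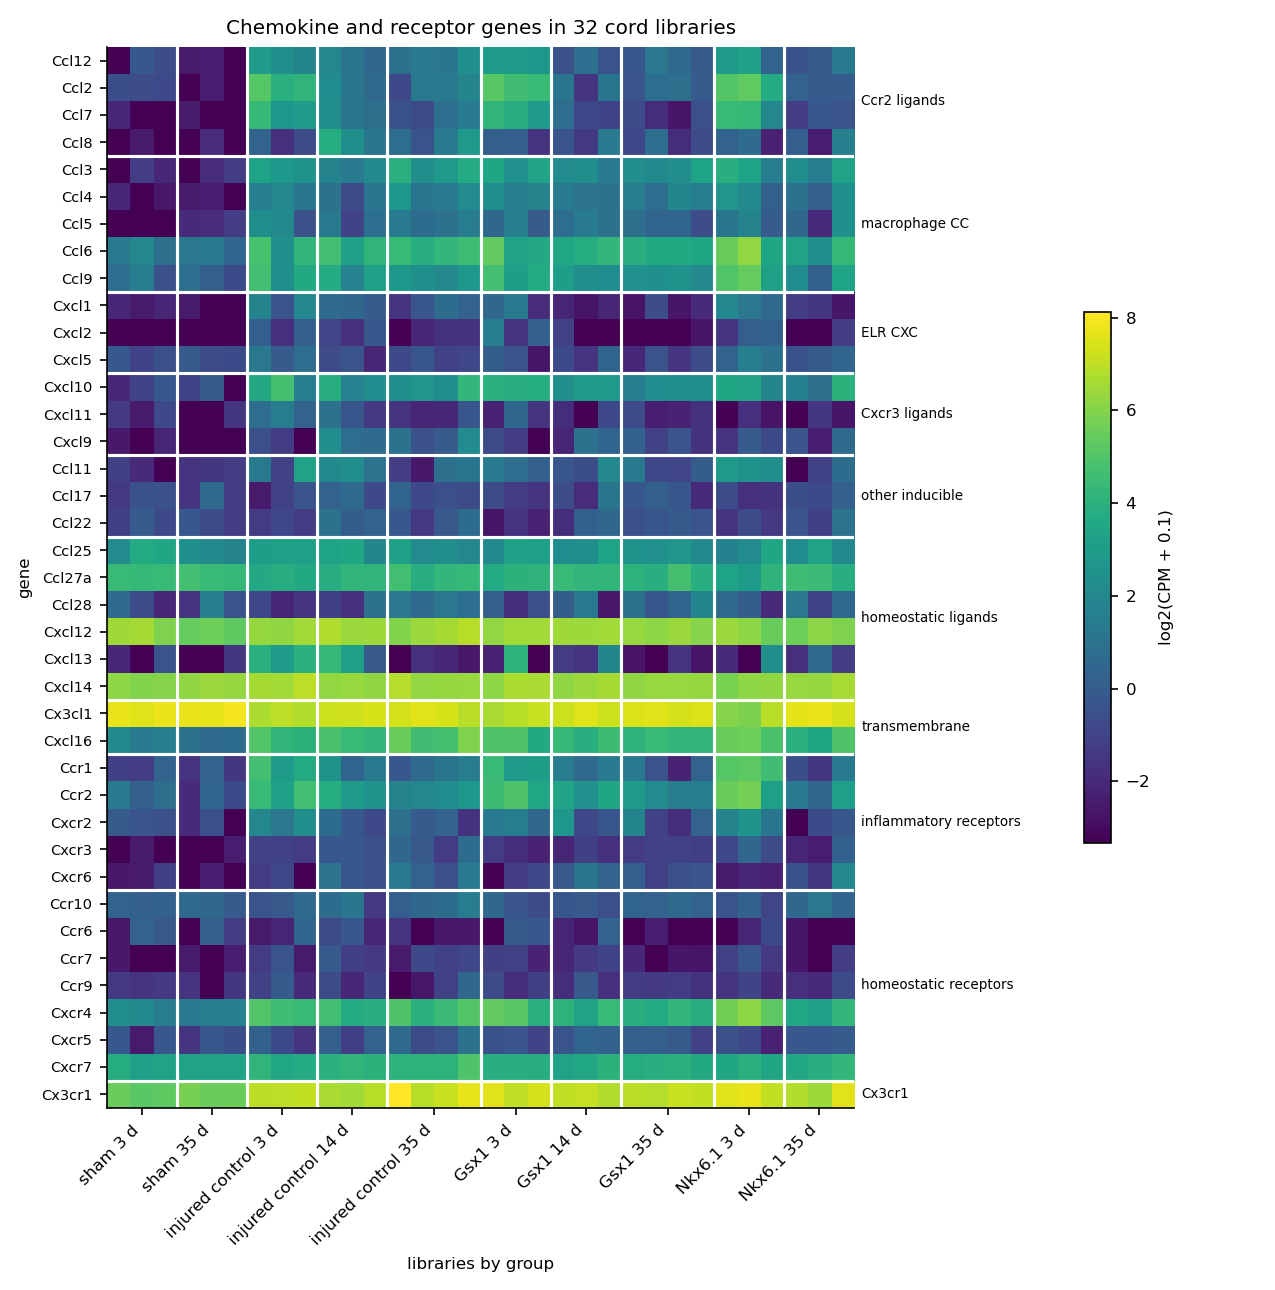
Level of 39 tested chemokine and receptor genes (rows, ordered by role) in each of the 32 libraries (columns, ordered by group), as log2(CPM + 0.1) on a color scale. The sham columns are dark for most inducible ligands, while the rows of Cx3cl1, Cxcl12 and Cxcl14 are bright in every library.

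The members are given here by whole chromosome, which is wider than a gene cluster. Over all genes tested, 19.5% rose at 3 days and 21.3% at 35 days. Of 14 members on chromosome 11, which include the CC ligand genes from Ccl2 (chr11:82035571-82037453, GRCm38) to Ccl4 (chr11:83662584-83664683), 13 were tested, and 11 rose at 3 days and 10 at 35 days. Chromosome 5 held 10 members, mostly CXC ligands, of which 7 were tested and 5 and 3 rose. Chromosome 9 held another 10, mostly CC receptors, of which 7 were tested and 4 rose at each time. Compared per length of exon, Cx3cl1 was the most abundant member in sham at 3 days, with 52.8 ± 4.14 CPM per kb (mean ± SD, n = 3), followed by Cxcl14 with 36.1 ± 2.83 CPM per kb and Cxcl12 with 9.98 ± 2.27 CPM per kb. In injured controls at 3 days Cxcl14 led with 56.9 ± 10.0 CPM per kb, Cx3cl1 had 28.8 ± 2.75 and Cx3cr1 28.3 ± 1.51 CPM per kb, and the level of Ccl2 was 19.9 ± 9.23 CPM per kb.

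The monocyte-attracting ligands, most of which act on Ccr2, were low in sham cord, and 3 of the 4 rose at 3 days and all 4 at 35 days. Ccl2 had 0.568, 0.555 and 0.479 CPM in the 3 sham libraries at 3 days and 34.6, 15.1 and 18.1 CPM in the 3 injured controls. Every injured library was far above every sham library, and the log2 fold change was 5.38 ± 0.67 (SE; edgeR adjusted p = 1.66e-06). At 35 days Ccl2 had 0, 1 and 0 raw counts in sham and 6, 35, 34 and 49 in injured controls, a ratio of 83.8 with an interval of 14.8 to 3340 (95% exact counting interval; edgeR adjusted p = 0.000281). Such intervals cover counting error only. The injured libraries again did not overlap with sham, although replicate 1 was several times lower than the other 3. Ccl2 stayed called when any single library was left out, and its fitted log2 fold change at 35 days moved from 5.99 to 8.07 without sham replicate 2, the sham library that held its only count.

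Ccl7, a second Ccr2 ligand and the neighbour of Ccl2 on chromosome 11, had 2, 0 and 0 raw counts in sham at 3 days and 20.1, 6.36 and 7.85 CPM in injured controls. The ratio of the summed counts was 230 with an interval of 63.2 to 1900 (95% exact counting interval; edgeR adjusted p = 5.74e-06). Replicate 1 was the highest injured library for Ccl7 as it was for Ccl2, and the fitted log2 fold change was 7.65, 10.39 without sham replicate 1 and 6.98 without injured control replicate 1. At 35 days Ccl7 had 1, 0 and 0 counts in sham and 8, 8, 23 and 35 in injured controls (ratio 50 with an interval of 8.7 to 2000; edgeR adjusted p = 0.003), with a fitted log2 fold change of 5.27 that was 7.31 without sham replicate 1. Ccl12, a mouse Ccr2 ligand, had 0, 0.793 and 0.547 CPM in sham and 7.7, 5.05 and 3.46 CPM in injured controls at 3 days (log2 fold change 3.59 ± 0.77; edgeR adjusted p = 0.000878; 3.00 without sham replicate 1 and 4.27 without replicate 2). All injured libraries exceeded all sham libraries for both genes. At 35 days Ccl12 had 1, 1 and 0 counts in sham and 1.91, 2.43, 2.14 and 5.2 CPM in injured controls (edgeR adjusted p = 0.000256). Injured replicate 4 had more than the other 3.

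Ccl8 is a CC ligand also encoded on chromosome 11. In injured controls it had 1.13, 0.187 and 0.539 CPM at 3 days, 13.6, 5.13 and 2.13 CPM at 14 days and 1.59, 0.675, 2.43 and 6.91 CPM at 35 days. In sham it had 0, 1 and 0 raw counts at 3 days and 0, 2 and 0 at 35 days. Its difference from sham missed the threshold at 3 days (edgeR adjusted p = 0.0687; 0.014 by DESeq2's Wald test, past the threshold) and passed it at 35 days (edgeR adjusted p = 0.00464), where the summed counts had a ratio of 52.7 with an interval of 14.4 to 439. The libraries did not overlap with sham at either time. The fitted log2 fold change at 35 days was 5.53, 8.43 without sham replicate 2 and 4.64 without injured control replicate 4, and the difference between the times was not called (log2 1.29 ± 4.30; edgeR adjusted p = 0.967).

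The 5 CC ligands made mainly by macrophages and lymphocytes, Ccl3, Ccl4, Ccl5, Ccl6 and Ccl9, all rose at both times. Ccl3 (MIP-1 alpha), made by activated microglia and macrophages, had 0, 0.317 and 0.137 CPM in sham and 9.97, 6.86 and 5.54 CPM in injured controls at 3 days (log2 fold change 5.59 ± 0.81; edgeR adjusted p = 1.05e-05; 6.60 without sham replicate 2). At 35 days it had 0, 0.17 and 0.328 CPM in sham and 15.3, 4.93, 6.94 and 13 CPM in injured controls (log2 fold change 5.86 ± 0.79; edgeR adjusted p = 4.43e-06; 5.27 without sham replicate 1 and 6.78 without replicate 3). The lowest injured library was more than 10 times the highest sham library at each time. Ccl4 (MIP-1 beta) had 2, 0 and 1 counts in sham and 2.87, 3.81 and 2.08 CPM in injured controls at 3 days, a count ratio of 41 with an interval of 13.7 to 202 (edgeR adjusted p = 7.4e-05; fitted log2 fold change 5.18, 6.03 without sham replicate 1). At 35 days its counts were 1, 1 and 0 in sham and its level 6.45, 2.09, 2.36 and 4.54 CPM in injured controls (ratio 69.3 with an interval of 18.9 to 576; edgeR adjusted p = 2.19e-05). For Ccl3 and Ccl4 alike, injured replicates 1 and 4 were the higher pair at 35 days.

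Ccl5 (RANTES), which binds Ccr1 and Ccr3 and is made by T cells, NK cells and macrophages, had 0 counts in all 3 sham libraries at 3 days. The injured controls had 64, 67 and 8 counts, at least 45.3-fold higher when sham is set to the floor of 3 counts over the group (edgeR adjusted p = 0.000183). At 35 days it had 0.157, 0.17 and 0.328 CPM in sham and 2.55, 1.55, 1.84 and 2.68 CPM in injured controls (log2 fold change 3.25 ± 0.93; edgeR adjusted p = 0.00971). Ccl6, a macrophage chemokine of rodents, already had 2.34, 3.89 and 1.78 CPM in sham at 3 days and 27.6, 5.24 and 18.3 CPM in injured controls (log2 fold change 2.68 ± 0.66; edgeR adjusted p = 0.00302). Injured replicate 2 was close to the highest sham library and the other 2 were several times above it. Its 35-day levels were 2.27, 2.37 and 1.23 CPM in sham and 21.7, 14, 18.9 and 23.5 CPM in injured controls (log2 fold change 3.31 ± 0.67; edgeR adjusted p = 0.000571). Ccl9, a rodent Ccr1 ligand, had 1.63, 2.78 and 0.615 CPM in sham and 25, 5.05 and 12.1 CPM in injured controls at 3 days (log2 fold change 3.08 ± 0.70; edgeR adjusted p = 0.0016; 2.37 without injured replicate 1). The groups did not overlap, with injured replicate 2 the lowest again. At 35 days Ccl9 had 1.64, 1.02 and 0.492 CPM in sham and 6.85, 5.26, 4.06 and 6.84 CPM in injured controls (edgeR adjusted p = 0.0113), and the call was lost without sham replicate 3 (edgeR adjusted p = 0.0653).

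**Figure D2:**
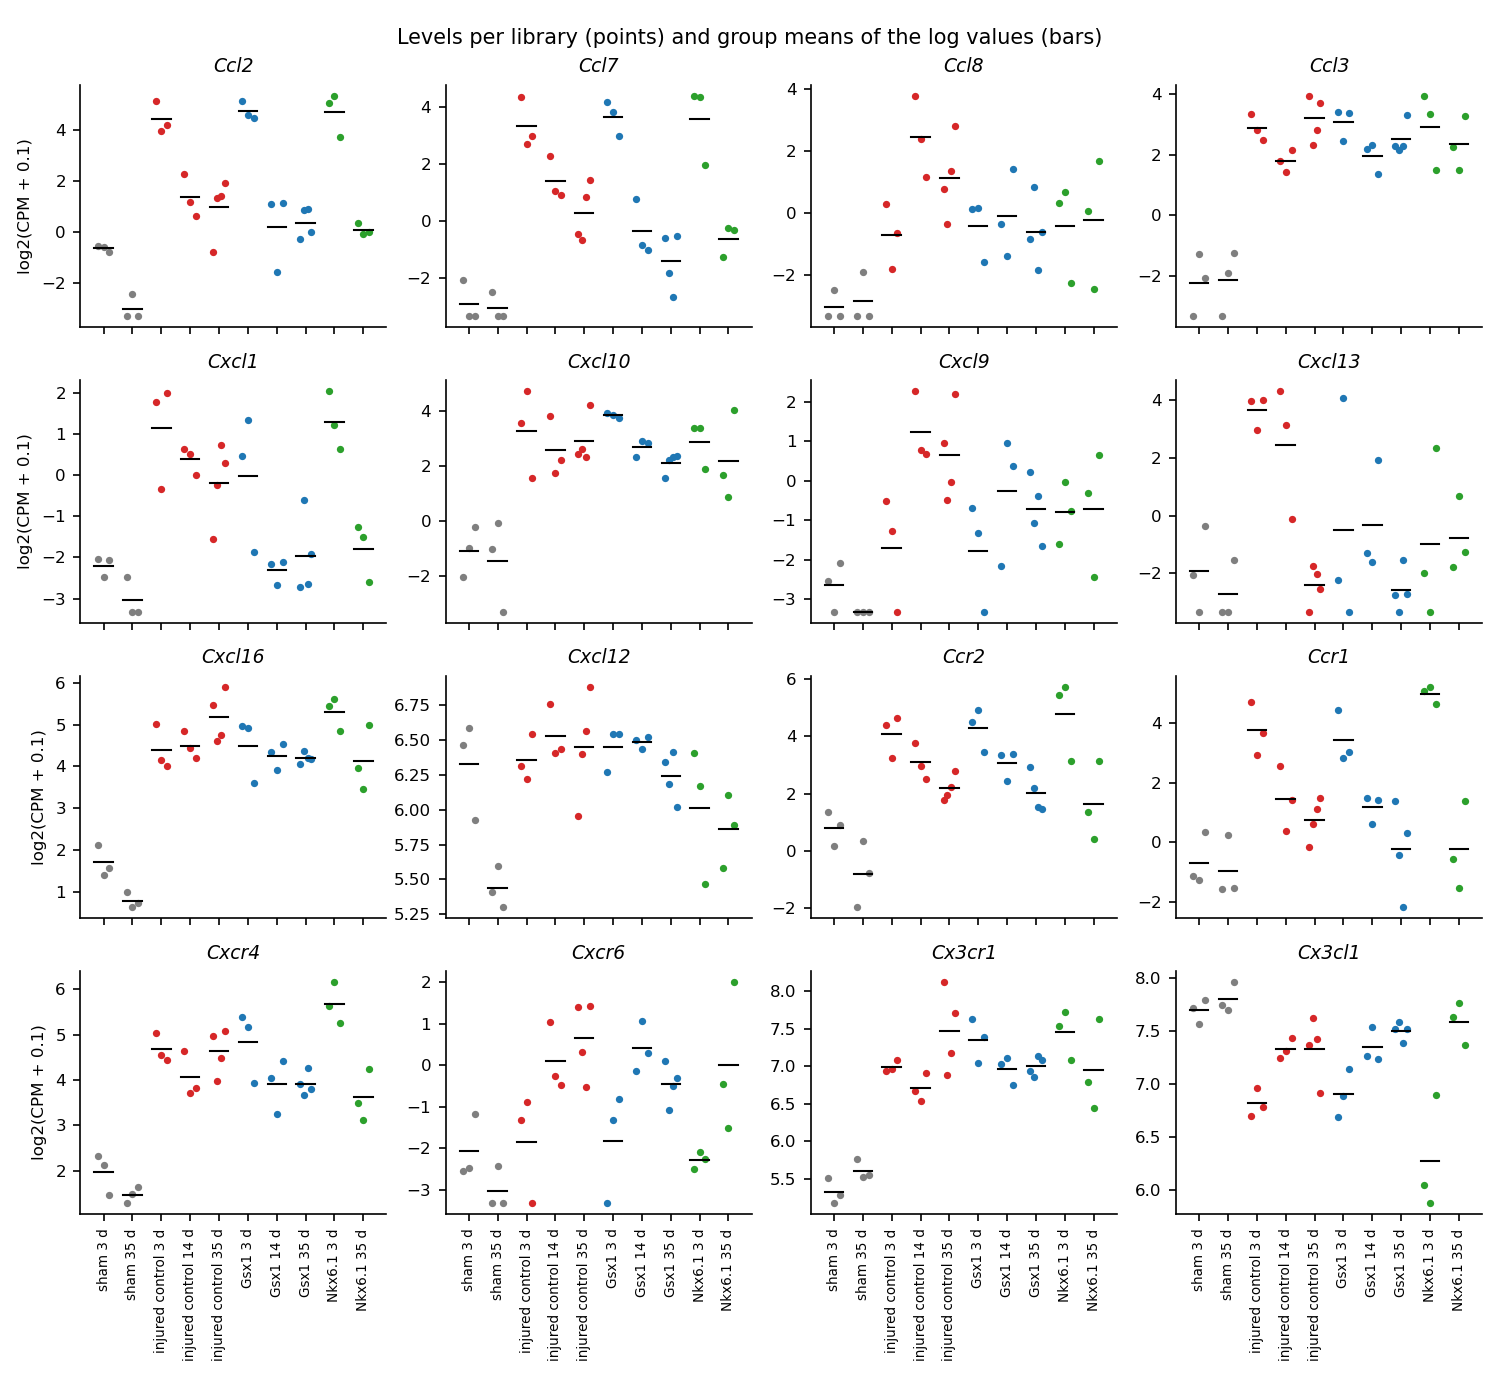
Level of 16 chemokine and receptor genes in every library, by group, as log2(CPM + 0.1). Each point is 1 library and each bar the mean of the log values of its group. Ccl2 was highest in the 3-day injured groups, Cxcl16 and Cx3cr1 stayed above sham in every injured group, and Cx3cl1 had its highest group means in sham.

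Among the CXC ligands with the ELR motif, which act on neutrophils through Cxcr2, Cxcl1 rose at both times. It had 0.142, 0.0793 and 0.137 CPM in sham and 3.32, 0.686 and 3.85 CPM in injured controls at 3 days (log2 fold change 4.34 ± 0.91; edgeR adjusted p = 0.000735). Replicate 2 was well below the other injured libraries but above all sham libraries. At 35 days its counts were 1, 0 and 0 in sham and 3, 11, 21 and 15 in injured controls (ratio 33.8 with an interval of 5.79 to 1360; edgeR adjusted p = 0.0037; fitted log2 fold change 4.70, 6.74 without sham replicate 1). Cxcl2, which lies close by on chromosome 5, had 0 counts in all sham libraries. It had 13, 3 and 13 counts in injured controls at 3 days, at least 9.45-fold higher (edgeR adjusted p = 0.0107), and 0, 2, 3 and 3 counts at 35 days, at least 1.8-fold higher (edgeR adjusted p = 0.152). The 3-day gain passed the threshold and the 35-day one did not. Cxcl5 had 0.781, 0.397 and 0.615 CPM in sham and 2.27, 0.873 and 1.62 CPM in injured controls at 3 days, without overlap, but its log2 fold change of 1.38 ± 0.64 was not called (edgeR adjusted p = 0.0949; 0.0452 with only the compared groups fitted). Cxcl3, with the same 11-letter match as Cxcl1 and Cxcl2, was not tested and had 1, 0 and 0 counts in sham and 6, 0 and 6 in injured controls at 3 days. Summed neutrophil markers (9 genes) were 55.9 to 112 CPM in sham and 173 to 281 CPM in injured controls at 3 days. Of the 9 markers 2 rose, where 19.5% of all genes rose. The part of these markers in the ligand differences was not tested.

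The interferon-inducible ligands of Cxcr3 attract activated T cells and NK cells. Cxcl10 had 0.142, 0.397 and 0.752 CPM in sham and 11.9, 26.6 and 2.85 CPM in injured controls at 3 days (log2 fold change 4.97 ± 0.94; edgeR adjusted p = 0.000279; 5.67 without sham replicate 3 and 4.06 without injured replicate 2). The injured libraries differed among themselves by a factor of nearly 10, yet all were above sham. Its 35-day levels were 0.391, 0.848 and 0 CPM in sham and 5.33, 6.07, 4.87 and 18.9 CPM in injured controls, with replicate 4 far above the rest (log2 fold change 4.40 ± 0.94; edgeR adjusted p = 0.000986; 3.70 without that library, 5.40 without sham replicate 2 and 3.80 without sham replicate 3). Cxcl9 had 1, 0 and 2 counts in sham and 8, 5 and 0 in injured controls at 3 days and was not called (edgeR adjusted p = 0.309). The 35-day sham libraries had 0 counts of it and the injured controls 23, 9, 12 and 60, at least 23.4-fold higher (edgeR adjusted p = 0.00209; fitted log2 fold change 7.84, 7.03 without replicate 4). At 14 days the injured controls had 4.72, 1.6 and 1.51 CPM. Cxcl11 had 0.284, 0.0793 and 0.479 CPM in sham and 1.66, 2.68 and 1.15 CPM in injured controls at 3 days (log2 fold change 2.65 ± 0.96; edgeR adjusted p = 0.0329). That call was lost without sham replicate 1 or 2 or injured replicate 1 or 2 (edgeR adjusted p 0.0623 to 0.12), and the fold change was 3.25 without sham replicate 3. The annotation lists Cxcl11 as a polymorphic pseudogene, and 41.7% of its exon bases overlap Gm2673, so its reads are of uncertain origin. The Cxcl10 exons share 5.91% of their bases with Art3.

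Cxcr3 itself, the receptor of these ligands, had 0, 1 and 0 counts in sham and 5, 6 and 4 in injured controls at 3 days, a ratio of 14.7 with an interval of 2.26 to 617 (edgeR adjusted p = 0.0173). The call was lost without sham replicate 1 or 3 (edgeR adjusted p 0.0666 to 0.0716), and the fitted log2 fold change moved from 3.46 to 5.43 without sham replicate 2. At 35 days its counts were 0, 0 and 1 in sham and 17, 12, 4 and 21 in injured controls (ratio 36.5 with an interval of 6.28 to 1470; edgeR adjusted p = 0.000642; fitted log2 fold change 4.82, 6.87 without sham replicate 3). Injured libraries lay above sham at both times. Cxcr6, carried by T cells and the receptor of Cxcl16, was called at 35 days, with 0, 1 and 0 counts in sham and 2.55, 1.15, 0.59 and 2.6 CPM in injured controls (ratio 62.2 with an interval of 10.9 to 2480; edgeR adjusted p = 0.00153; fitted log2 fold change 5.59, 7.67 without sham replicate 2). At 3 days the groups overlapped, with 0.071, 0.0793 and 0.342 CPM in sham and 0.302, 0.437 and 0 CPM in injured controls (edgeR adjusted p = 0.729). The difference between the 2 times was not called (log2 5.01 ± 1.86; edgeR adjusted p = 0.319). Summed T and NK cell markers (9 genes) were 0.235 to 0.328 CPM in sham, where Cd3e, Nkg7, Klrb1c and Gzmb were at 0, and 4.43 to 16.5 CPM in injured controls at 35 days. All 6 of the markers that were tested rose at 35 days and 0 of 6 at 3 days, and their part in the receptor and ligand differences was not tested.

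The receptors Ccr1 and Ccr2, carried by monocytes and macrophages, rose at 3 days, and Ccr2 also at 35 days. Ccr1 had 0.355, 0.317 and 1.16 CPM in sham and 26.1, 7.55 and 12.5 CPM in injured controls at 3 days (log2 fold change 4.61 ± 0.82; edgeR adjusted p = 0.000134; 5.47 without sham replicate 3 and 4.00 without injured replicate 1). At 35 days its levels were 0.235, 1.1 and 0.246 CPM in sham and 0.796, 1.42, 2.07 and 2.68 CPM in injured controls and were not called apart (edgeR adjusted p = 0.116), and injured replicate 1 lay within the sham range. Ccr2, the Ccl2 receptor, had 2.49, 1.03 and 1.78 CPM in sham and 20.8, 9.3 and 24.9 CPM in injured controls at 3 days (log2 fold change 3.36 ± 0.68; edgeR adjusted p = 0.000547). It had 0.157, 1.19 and 0.492 CPM in sham and 3.34, 3.78, 4.65 and 6.77 CPM in injured controls at 35 days (log2 fold change 2.93 ± 0.78; edgeR adjusted p = 0.00564; 3.82 without sham replicate 2). The groups did not overlap at either time, and the injured level at 35 days was below the injured level at 3 days in every library. Cxcr2, the neutrophil receptor, had 0.852, 0.714 and 0.615 CPM in sham and 3.85, 2.25 and 4.93 CPM in injured controls at 3 days, without overlap, and was not called in the fit of all groups (log2 fold change 2.32 ± 0.96; edgeR adjusted p = 0.06). It was called higher with the replicate block (edgeR adjusted p = 0.0457), with only the compared groups fitted (edgeR adjusted p = 0.00163) and by DESeq2's Wald test (adjusted p = 0.0402). Of the monocyte and macrophage markers, 7 of 7 rose at 3 days and 6 of 7 at 35 days, where Ccr1 was not called. From 3 to 35 days in injured controls Ccr1 and Ccr2 fell, as given below. In the same comparison 0 of the 7 markers were called, which does not show that they were unchanged. Their mean CPM at 3 and 35 days was lower at 35 days in Cd68 (137 and 118), Ly6c2 (13.7 and 5.57) and Cd14 (38.7 and 20). It was also lower in Itgam (137 and 96.2) and Adgre1 (63.5 and 42.5). Lyz2 (838 and 1020) and Ms4a7 (11.9 and 16) were higher. The part of these markers in the receptor differences was not tested.

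Cxcr4, the Cxcl12 receptor carried by leukocytes and progenitor cells, was the receptor with the smallest p at both times. It had 4.9, 4.28 and 2.67 CPM in sham and 32.5, 23.5 and 21.7 CPM in injured controls at 3 days (log2 fold change 2.71 ± 0.40; edgeR adjusted p = 1.3e-05), and 2.35, 2.71 and 3.03 CPM in sham and 31.3, 15.7, 22.3 and 33.7 CPM in injured controls at 35 days (log2 fold change 3.25 ± 0.41; edgeR adjusted p = 1.6e-06). The lowest injured library was more than 4 times the highest sham library each time. Cxcl12 itself, which retains and guides such cells, had 88.4, 95.9 and 60.6 CPM in sham and 79.5, 74.4 and 93.3 CPM in injured controls at 3 days, with a log2 fold change of 0.01 ± 0.21 (95% interval -0.41 to 0.44; edgeR adjusted p = 0.969). By 35 days Cxcl12 had 42.5, 48.3 and 39.3 CPM in sham and 61.9, 84.5, 94.7 and 118 CPM in injured controls and rose (log2 fold change 1.05 ± 0.20; edgeR adjusted p = 0.000306). The injured levels overlapped between the times, and the sham libraries at 35 days were all below those at 3 days, a difference within sham of -0.91 ± 0.21 (log2) that was not called in the fit of all groups (edgeR adjusted p = 0.244). It was called by DESeq2's Wald test (adjusted p = 0.0169) and with only the 2 sham groups fitted (edgeR adjusted p = 0.00766). The difference of the injury effects was 1.04 ± 0.29 (log2; edgeR adjusted p = 0.122). Cxcr7, now named Ackr3, a scavenger of Cxcl12, had 9.63, 10.3 and 9.68 CPM in sham and 16.6, 17, 17 and 31.7 CPM in injured controls at 35 days and rose there (log2 fold change 1.06 ± 0.23; edgeR adjusted p = 0.0011). At 3 days its libraries overlapped with sham (edgeR adjusted p = 0.218).

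The pair of transmembrane chemokines moved in opposite directions. Cxcl16, a membrane-bound ligand and scavenger made by macrophages, had 4.26, 2.54 and 2.87 CPM in sham and 32.2, 17.7 and 16.1 CPM in injured controls at 3 days (log2 fold change 2.76 ± 0.42; edgeR adjusted p = 1.9e-05). At 35 days Cxcl16 had 1.88, 1.44 and 1.56 CPM in sham and 44.4, 24.4, 26.9 and 59.9 CPM in injured controls (log2 fold change 4.57 ± 0.45; edgeR adjusted p = 1.07e-07), the smallest p of any member. Injured and sham libraries were far apart at both times. Its exons overlap Zmynd15 over 18.3% of their bases, and the sources used here do not give the strand setting of the counting. Fractalkine, Cx3cl1, had 211, 190 and 222 CPM in sham and 104, 125 and 110 CPM in injured controls at 3 days and fell by 0.88 on the log2 scale (SE 0.19; edgeR adjusted p = 0.000887). At 35 days it had 214, 208 and 249 CPM in sham and 165, 197, 172 and 121 CPM in injured controls, also lower in every injured library (log2 fold change -0.45 ± 0.17; edgeR adjusted p = 0.0437). This 35-day call was lost without any 1 of sham replicates 1, 2 or 3 or injured replicates 1, 3 or 4 (edgeR adjusted p 0.051 to 0.187) and with the replicate block (edgeR adjusted p = 0.0864). Summed neuron markers (8 genes) were 6620 to 6960 CPM in sham and 3020 to 3910 CPM in injured controls at 3 days, where 8 of 8 fell, and their part in the Cx3cl1 difference was not tested. Cx3cr1 rose, with 45.5, 36.1 and 38.7 CPM in sham and 122, 125 and 135 CPM in injured controls at 3 days (log2 fold change 1.66 ± 0.26; edgeR adjusted p = 2.82e-05) and 54.2, 45.7 and 46.6 CPM in sham and 278, 118, 144 and 209 CPM in injured controls at 35 days (log2 fold change 1.94 ± 0.25; edgeR adjusted p = 2.64e-06). Summed microglia markers without Cx3cr1 (7 genes) were 240 to 261 CPM in sham and 685 to 705 CPM in injured controls at 3 days, and 236 to 270 and 657 to 1110 CPM at 35 days, and their part was not tested.

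Of the 6 tested homeostatic ligands, 2 rose and 1 fell at 3 days. Cxcl14, expressed without a stimulus in many tissues, had 71.6, 61.4 and 65 CPM in sham and 95, 91.9 and 125 CPM in injured controls at 3 days, a small difference without overlap (log2 fold change 0.65 ± 0.15; edgeR adjusted p = 0.00166). Cxcl13, the B cell attractant that acts on Cxcr5, had 0.142, 0 and 0.684 CPM in sham and 15.4, 7.61 and 15.9 CPM in injured controls (log2 fold change 5.46 ± 1.66; edgeR adjusted p = 0.0125). Without sham replicate 2 the call was lost (edgeR adjusted p = 0.055), and without sham replicate 3 the fold change was 7.29. Its receptor Cxcr5 was not called (log2 fold change 0.12 ± 0.67; edgeR adjusted p = 0.909). Ccl27a, a skin chemokine that acts on Ccr10, had 20.7, 19.9 and 21.6 CPM in sham and 11.8, 13.9 and 12.1 CPM in injured controls and fell by 0.72 on the log2 scale (edgeR adjusted p = 0.0298). The groups did not overlap, but the call was lost without any 1 of sham replicates 1, 2 or 3 or injured replicates 1 or 3 (edgeR adjusted p 0.0597 to 0.108), and 26.5% of its 100-base stretches also occur in other genes. Ccl25, a thymus and gut chemokine, overlapped between the groups (4.55, 12.7 and 10.4 CPM in sham and 8.23, 8.92 and 8.62 CPM in injured controls; edgeR adjusted p = 0.889). At 35 days only Cxcl12 of the 6 was called.

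Among the other inducible ligands, Ccl11 (eotaxin, which acts on Ccr3) rose at 3 days, with 0.355, 0.159 and 0 CPM in sham and 2.34, 0.374 and 9.54 CPM in injured controls (log2 fold change 4.51 ± 1.24; edgeR adjusted p = 0.00641). Replicate 3 held most of the gain, and without it the fold change was 2.93 and the call was lost (edgeR adjusted p = 0.0853). The Ccl11 fold change was 5.62 without sham replicate 1 and 3.92 without sham replicate 3. Summed skeletal muscle markers (6 genes) were 16, 2.56 and 257 CPM in the same 3 injured libraries. In the SCI+Nkx6.1 libraries at 3 days they were 5.01, 469 and 2.42 CPM. Per length of exon, Ccl11 had 5.55 ± 1.22 CPM per kb (mean ± SD) there and 3.78 ± 4.46 CPM per kb in the 3-day injured controls. The part of the muscle markers was not tested. The Ccr4 ligands Ccl17 and Ccl22 overlapped with sham at 3 days (edgeR adjusted p = 0.732 and 0.481). Ccr7, which guides dendritic and T cells to lymph nodes, had 1, 0 and 0 counts in sham and 4, 11 and 1 in injured controls at 3 days (ratio 15.6 with an interval of 2.43 to 656; edgeR adjusted p = 0.0199). The lowest injured library held the same count as the highest sham library. The call was lost without sham replicate 2 or 3 or injured replicate 2 (edgeR adjusted p 0.0696 to 0.134), and the fitted log2 fold change moved from 3.52 to 5.46 without sham replicate 1 and to 2.60 without injured replicate 2. Ccr6, Ccr9, Ccr10 and Cxcr5 passed the test at neither time.

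**Figure D3:**
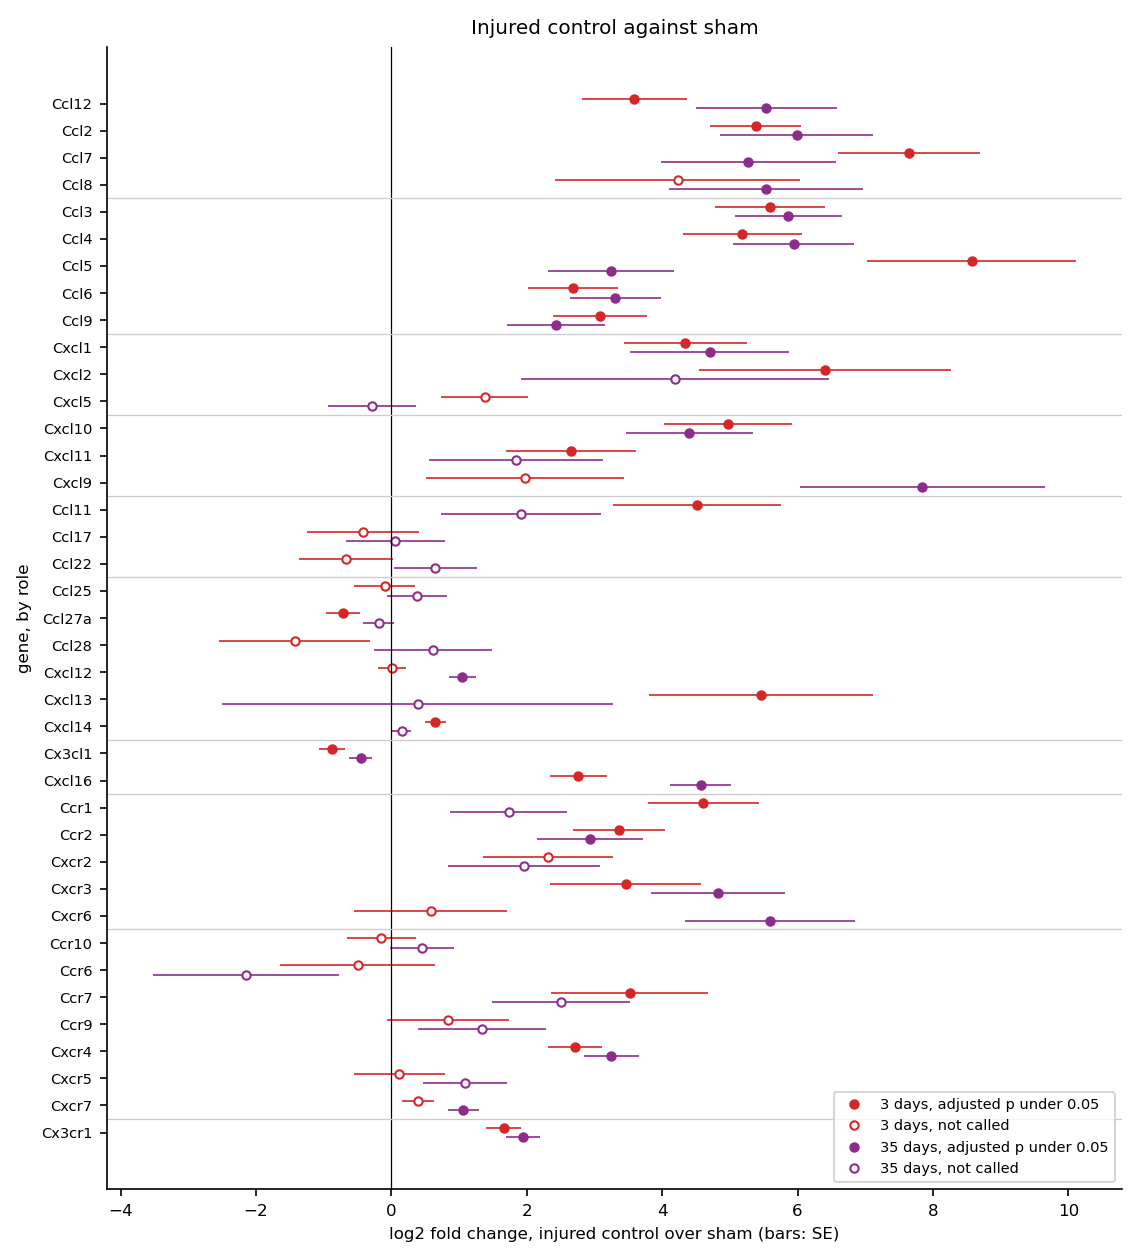
Log2 fold change of 39 tested members in injured control over sham at 3 days (red) and 35 days (purple), with bars of 1 standard error; filled points had an edgeR adjusted p under 0.05. Cx3cl1 lies left of 0 at both times, and Ccl2, Ccl7, Ccl3 and Ccl4 lie above 5 on the log2 scale at both times.

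The 15 members with too few reads to test were read from raw counts. Ccl21a, Ccl21b, Ccl21c and Ccl27b had a count of 0 in all 32 libraries. Between 50.3% and 100% of the 100-base stretches of Ccl21a, Ccl21b and Ccl27b also occur in other genes, so where their reads were counted is uncertain. Ccl24, an eosinophil attractant, had 0, 0 and 0 counts in sham and 0, 4 and 3 in injured controls at 3 days. At 35 days it had 2 counts over the sham libraries and 6 over the injured controls. It had 0, 1 and 19 counts in the SCI+Gsx1 libraries at 14 days, of which 1 library stood apart. Ccr8 had 0, 0 and 0 counts in sham and 2, 0 and 2 in injured controls at 3 days. Ccl1, Ccl19, Ccl20, Ccl26, Ccl24's receptor Ccr3, and Ccr4, Cxcl17 and Cxcr1 never exceeded 7 counts in a library, so a difference in them was not detectable at this depth.

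The injured controls were then compared across time. From 3 to 14 days only Ccl2 was called, with 4.63, 2.13 and 1.44 CPM at 14 days (log2 fold change -3.06 ± 0.56; edgeR adjusted p = 0.00363; -3.65 without the 14-day replicate 1), where 3.06% of all genes were called (2.42% lower and 0.644% higher). From 3 to 35 days 6 members fell and 2 rose, with 11% of all genes called (5.97% lower and 5.04% higher). Ccl2 fell by 3.32 (edgeR adjusted p = 0.000143), Ccl7 by 3.05 (edgeR adjusted p = 0.00227; -2.41 without the 3-day replicate 1) and Ccr1 by 3.13 on the log2 scale (edgeR adjusted p = 0.00282). These 3 kept no overlap between the 3-day and 35-day libraries. Cxcl13 had 15.4, 7.61 and 15.9 CPM at 3 days, 19.5, 8.6 and 0.824 CPM at 14 days and 0, 0.202, 0.148 and 0.0744 CPM at 35 days, and fell by 6.78 (log2; edgeR adjusted p = 0.00927). At 35 days it was within the range of the sham libraries, and at 14 days its 3 libraries spread widely. Ccr2 also fell, by 1.98 on the log2 scale (edgeR adjusted p = 0.024), and the call was lost without the 3-day replicate 1 or 3 or the 35-day replicate 1 (edgeR adjusted p 0.0611 to 0.0921). Its 35-day injured libraries stayed above every sham library. The call was also lost with the replicate block (edgeR adjusted p = 0.0519). Cxcr6 rose by 2.71 (edgeR adjusted p = 0.0465) and Cx3cl1 by 0.54 (edgeR adjusted p = 0.0487). The Cxcr6 call was lost without any 1 of the 3-day replicates 1, 2 or 3 or the 35-day replicates 1 or 4 (edgeR adjusted p 0.0642 to 0.177; fold change 3.42 without the 3-day replicate 2) and with the replicate block (edgeR adjusted p = 0.0995). The Cx3cl1 call was lost without any 1 of the 3-day replicates 1, 2 or 3 or the 35-day replicates 1, 2 or 3 (edgeR adjusted p 0.0632 to 0.212).

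Between 14 and 35 days no member was called, with 1.32% of all genes called, 5 members at an unadjusted p under 0.05 (4 higher and 1 lower, against 14% and 9.47% of all genes) and 3 called by DESeq2's Wald test. Leaving out injured control replicate 2 at 35 days gave 3 calls, Ccl3 and Cx3cr1 higher and Cxcl13 lower. Without replicate 3 at 35 days Cx3cr1 and Cxcl13 were called, and without replicate 3 at 14 days Cxcl13. The smallest p was that of Cxcl13 (log2 fold change -6.34 ± 1.66; edgeR adjusted p = 0.052). Between the sham groups at 3 and 35 days no member was called, with 0.00613% of all genes called, 5 members at an unadjusted p under 0.05 (1 higher and 4 lower, against 2.43% and 4.75% of all genes) and 1, Cxcl12, lower at 35 days, by DESeq2. The injury effect at 35 days differed from that at 3 days in no member, with 0.362% of all genes called, 7 members at an unadjusted p under 0.05 (3 higher and 4 lower, against 5.22% and 4.36% of all genes) and 1, Cxcl12, by DESeq2. Cxcl12 was also called in this test without injured control replicate 1 at 35 days.

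In the SCI+Gsx1 libraries no chemokine or receptor gene differed from injured controls by the test at any time, and neither did any other gene, with 0% of all genes called at 3, 14 and 35 days. DESeq2's Wald test called 0 members at each time. At 3 days 1 member, Cxcl5, had an unadjusted p under 0.05, beside 1.21% of all genes lower and 0.858% higher, and it was lower (0.931, 0.66 and 0.0583 CPM against 2.27, 0.873 and 1.62 CPM; log2 fold change -1.51 ± 0.64; edgeR adjusted p = 1). The Ccl2 levels overlapped, with 35, 24 and 21.7 CPM against 34.6, 15.1 and 18.1 CPM. The 95% interval of its log2 difference was -0.75 to 1.26, so a rise by 1 log2 unit lies within it and a fall of that size does not.

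At 14 days 5 members had an unadjusted p under 0.05, all lower in the SCI+Gsx1 libraries: Cxcl1, Ccl8, Ccl7, Cxcr3 and Cxcl11. Of all genes 3.68% were lower and 2.21% higher at that level. Cxcl1 had 0.124, 0.0574 and 0.133 CPM against 1.46, 1.33 and 0.893 CPM in injured controls (log2 fold change -3.46 ± 0.92; edgeR adjusted p = 0.268). All 3 SCI+Gsx1 libraries were below all 3 controls and within the range of the sham libraries of the other times. Ccl8 had 0.683, 0.287 and 2.59 against 13.6, 5.13 and 2.13 CPM (edgeR adjusted p = 0.638), with 1 SCI+Gsx1 library above the lowest control. Ccl7 had 1.61, 0.459 and 0.399 against 4.72, 2 and 1.79 CPM (log2 fold change -1.76 ± 0.72; edgeR adjusted p = 0.678).

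At 35 days 10 members had an unadjusted p under 0.05, all lower in the SCI+Gsx1 libraries, where 12.5% of all genes were lower and 6.34% higher at that level. They were Cxcl16, Cxcl1, Cxcr7, Ccl7, Cxcr3, Ccr7, Cx3cr1, Cxcr4, Ccl8 and Cxcl9. Cxcl16 had 16.6, 20.6, 18.2 and 18.1 CPM in the SCI+Gsx1 libraries and 44.4, 24.4, 26.9 and 59.9 CPM in injured controls (log2 fold change -1.08 ± 0.32; 95% interval -1.74 to -0.43; edgeR adjusted p = 0.194). The 4 SCI+Gsx1 libraries were close together and all below the controls, which spread more. Without control replicate 2 Cxcl16 and Cx3cr1 were called, and the Cxcl16 fold change was -1.25 (edgeR adjusted p = 0.0271). Over the 14 alternative settings, which include a fit without the libraries high in Xist, the Cxcl16 fold change ran from -1.25 to -0.49. That of Cxcr7 ran from -0.64 to -0.26. Control replicates 1 and 4, the highest in Cxcl16 and Cx3cr1, had Xist at 407 and 676 CPM. Control replicates 2 and 3 had 0.337 and 2.51 CPM of Xist, and the SCI+Gsx1 libraries 0.356 to 3.7 CPM. Among these low-Xist libraries Cxcl16 had 24.4 and 26.9 CPM in the controls and 16.6 to 20.6 CPM in SCI+Gsx1. The part of this Xist difference in the lower values was not tested. Cxcl1 had 0.0508, 0.558, 0.0606 and 0.164 against 0.239, 0.742, 1.55 and 1.12 CPM (log2 fold change -2.28 ± 0.76; edgeR adjusted p = 0.194), with 1 SCI+Gsx1 library inside the control range. Cxcr7 had 13.4, 15, 15.3 and 12.4 against 16.6, 17, 17 and 31.7 CPM (log2 fold change -0.56 ± 0.20; edgeR adjusted p = 0.202). All SCI+Gsx1 libraries were below all controls. Cx3cr1 had 122, 116, 141 and 136 against 278, 118, 144 and 209 CPM, which overlapped (edgeR adjusted p = 0.22). Summed monocyte and macrophage markers were 528 to 655 CPM in the SCI+Gsx1 libraries and 883 to 1820 CPM in the controls, and microglia markers 576 to 679 and 657 to 1110 CPM. No marker of either list was called, and their part in the lower chemokine values was not tested.

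The SCI+Nkx6.1 libraries at 3 days also gave no call among the members, where 0.337% of all genes were called. Here 7 members had an unadjusted p under 0.05, 3 higher and 4 lower, beside 9.47% of all genes higher and 8.82% lower. Cxcl14 had 56.8, 72.7 and 74.5 CPM against 95, 91.9 and 125 CPM in injured controls (log2 fold change -0.61 ± 0.15; edgeR adjusted p = 0.0621), and all SCI+Nkx6.1 libraries were below all controls. Cxcl14 was called by DESeq2 (adjusted p = 0.0128), the 1 member that DESeq2 called, and without control replicate 1 (edgeR adjusted p = 0.0429). Cxcl11 had 0, 0.201 and 0.0539 against 1.66, 2.68 and 1.15 CPM (log2 fold change -4.29 ± 1.11; edgeR adjusted p = 0.0699), without overlap. Cxcr4 had 49.8, 71.2 and 37.9 against 32.5, 23.5 and 21.7 CPM (log2 fold change 1.03 ± 0.35; edgeR adjusted p = 0.141). All SCI+Nkx6.1 libraries were above all controls.

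SCI+Nkx6.1 replicate 3 at 3 days stood apart from the other 2 in many of these genes. Ccr2 had 43.4, 53.2 and 8.67 CPM, Ccl12 7.39, 9.13 and 1.13 CPM and Cx3cl1 66, 58.8 and 119 CPM in the 3 libraries, and replicate 3 was within the control range in Cx3cl1 and below them in Ccr2 and Ccl12. Without it 6 members were called: Ccl6 and Cxcr4 higher, and Cx3cl1, Cxcl11, Cxcl13 and Cxcl14 lower. The edgeR adjusted p was then 0.0106 for Cxcl14, 0.0389 for Cxcl11 and 0.0306 for Cxcr4 (fold changes -0.68, -4.01 and 1.23). Summed monocyte and macrophage markers in the 3 SCI+Nkx6.1 libraries were 3570, 3860 and 2500 CPM, all above the controls (804 to 1680 CPM). Neuron markers were 1780, 1890 and 3790 CPM and skeletal muscle markers 5.01, 469 and 2.42 CPM, so replicate 3 had the most of the neuron markers and replicate 2 the most of the muscle markers. Their part in the chemokine values was not tested.

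At 35 days the SCI+Nkx6.1 libraries gave 0 calls with 0% of all genes called, 6 members at an unadjusted p under 0.05 (all lower, beside 8.69% of all genes lower and 3.61% higher) and 0 by DESeq2. Cxcl12 had 47.8, 68.9 and 59.1 against 61.9, 84.5, 94.7 and 118 CPM (log2 fold change -0.61 ± 0.20; edgeR adjusted p = 0.335), which overlapped by 1 library on each side. Cxcr4 had 11.1, 8.65 and 18.8 against 31.3, 15.7, 22.3 and 33.7 CPM (log2 fold change -0.99 ± 0.34; edgeR adjusted p = 0.337), and Cxcl16 15.5, 10.8 and 31.6 against 44.4, 24.4, 26.9 and 59.9 CPM (log2 fold change -1.01 ± 0.35; edgeR adjusted p = 0.337). In both genes replicate 3 was within the control range and the other 2 were below it. The 14 alternative settings include a fit without the libraries high in Xist. Over them the fold change ran from -1.37 to -0.34 for Cxcr4 and from -1.56 to -0.13 for Cxcl16. Control replicates 1 and 4, the highest in both genes, and SCI+Nkx6.1 replicate 2, the lowest, had Xist above 100 CPM. In the remaining libraries the groups overlapped, with Cxcl16 at 15.5 and 31.6 CPM in SCI+Nkx6.1 and 24.4 and 26.9 CPM in controls. Cxcr4 had 11.1 and 18.8 CPM against 15.7 and 22.3 CPM there. The part of this Xist difference in the lower values was not tested. Summed monocyte and macrophage markers were 470, 295 and 962 CPM in the 3 libraries against 883 to 1820 CPM in the controls, and microglia markers 523, 412 and 847 against 657 to 1110 CPM, again with replicate 3 alone in the control range. T and NK cell markers were 3.69, 2.58 and 11.4 CPM against 4.43 to 16.5 CPM, and skeletal muscle markers 4.96, 6.9 and 78.9 CPM against 4.5 to 12 CPM. No marker of these lists was called, and their part in the lower chemokine values was not tested. The SCI+Gsx1 and SCI+Nkx6.1 comparisons at 35 days use the same control libraries, so their lower values are not independent of each other.

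The 2 factor groups were also set against each other. At 3 days no member was called (0.0797% of all genes), 7 members had an unadjusted p under 0.05 (3 higher and 4 lower in SCI+Gsx1, beside 7.07% and 7.09% of all genes) and DESeq2 called 0. Cx3cl1 had the smallest p, with 103, 118 and 141 CPM in SCI+Gsx1 and 66, 58.8 and 119 CPM in SCI+Nkx6.1 libraries (log2 fold change 0.57 ± 0.19; edgeR adjusted p = 0.221). Without SCI+Nkx6.1 replicate 3, 3 members were called (Ccl27a, Cx3cl1 and Cxcl14), and without SCI+Gsx1 replicate 1 there was 1 (Cxcl14). At 35 days 0 members passed even an unadjusted p under 0.05, beside 1.61% of all genes higher and 0.797% lower, 0% of all genes were called and DESeq2 called 0.

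**Figure D4:**
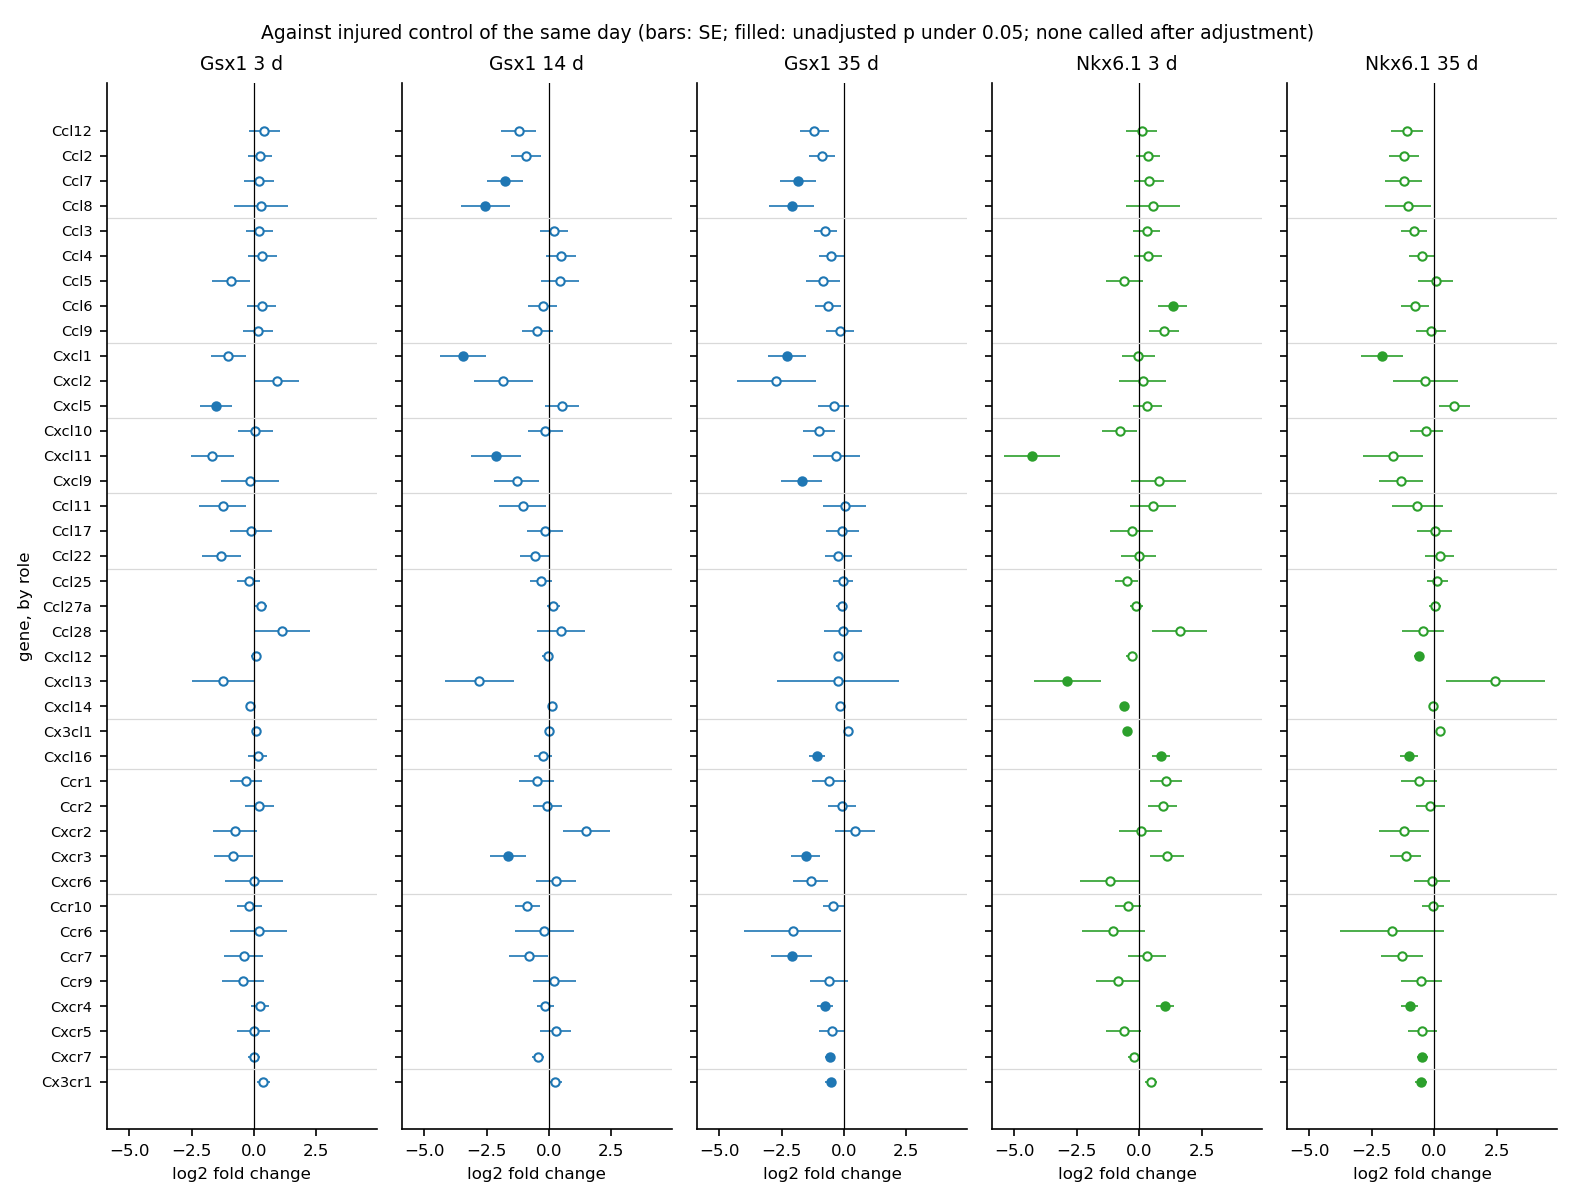
Log2 fold change over injured control, with bars of 1 standard error, of 39 tested members in the SCI+Gsx1 libraries at 3, 14 and 35 days and the SCI+Nkx6.1 libraries at 3 and 35 days; filled points had an unadjusted p under 0.05 and none had an adjusted p under 0.05. All filled points at 14 and 35 days lie left of 0, while those of SCI+Nkx6.1 at 3 days lie on both sides.

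Other genes of the pathway were read from a list of 34, which holds atypical receptors, chemokines and receptors named outside the scheme, relays of receptor signalling and proteases that cut chemokines. Of these 31 were tested, and 19 rose and 1 fell at 3 days, where 19.5% of all genes rose and 16% fell. At 35 days 20 rose and 2 fell, where 21.3% of all genes rose and 15.5% fell. The median log2 fold change of the list was 0.93 and 0.91, against 0.01 and 0.04 over all genes. Of the monocyte and macrophage markers summed above, 7 of 7 and 6 of 7 rose at these times, and their part was not tested. Relays found mainly in leukocytes were among the genes of the list that rose. Vav1, an exchange factor for Rac, had 36.5 ± 4.46 against 4.64 ± 0.845 CPM at 3 days (mean ± SD over the libraries, injured control against sham; log2 fold change 2.97 ± 0.34; edgeR adjusted p = 8.47e-07) and 32.4 ± 10.1 against 3.28 ± 0.603 CPM at 35 days (edgeR adjusted p = 1.94e-07). Dock2, which activates Rac downstream of chemokine receptors, had 39.4 ± 6.79 against 5.5 ± 0.421 CPM at 3 days (log2 fold change 2.84 ± 0.38; edgeR adjusted p = 5.04e-06). Pf4, a platelet and macrophage chemokine named outside the Cxcl scheme, had 12.3 ± 8.85 against 0.696 ± 0.435 CPM (log2 fold change 4.15 ± 0.87; edgeR adjusted p = 0.000728). Adam17, a protease that sheds Cx3cl1 and Cxcl16 from the membrane, had 83 ± 3.79 against 39.6 ± 5.71 CPM at 3 days (log2 fold change 1.07 ± 0.20; edgeR adjusted p = 0.000186). Dpp4, which trims the ends of Cxcl12 and Cxcl10, did not pass at 3 days (edgeR adjusted p = 0.466) and had 10.1 ± 8.24 against 1.58 ± 0.339 CPM at 35 days (log2 fold change 2.68 ± 0.59; edgeR adjusted p = 0.00123). Ackr1, the atypical receptor of venules and red cells, was not called, with 31.2 ± 5.87 against 30.4 ± 3 CPM at 3 days (log2 fold change 0.04 ± 0.23; edgeR adjusted p = 0.922). Elmo1, the partner of Dock proteins, fell by 0.44 at 3 days (edgeR adjusted p = 0.0152) and by 0.51 at 35 days (log2; edgeR adjusted p = 0.00383). In the SCI+Gsx1 and SCI+Nkx6.1 comparisons 0 of the 31 were called at any time.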

How the data were processed

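Per the labels, total RNA of snap-frozen spinal cord was sequenced as paired ends. The authors deposited raw counts, 1 row for each gene symbol and 1 column for each library, without normalization. The submitters' processing notes name the builds mm10 and GRCm38 and the tools HISAT2, SAMtools, HTSeq and DESeq2, without saying what each did. The sources used here do not give the strand setting or the treatment of reads matching several genes, so reads of overlapping genes and near-identical copies are uncertain in origin. Columns were matched to samples by the identifiers in the labels, and 0 were left out.

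Counts were scaled by TMM, filtered (edgeR's expression filter, minimum count 10 and minimum total count 15) and tested in edgeR 4.0.16 (R 4.3.3) by its quasi-likelihood F test, with all 10 groups in 1 fit without covariates (22 residual degrees of freedom, common biological coefficient of variation 20.8%). Adjusted p-values are Benjamini-Hochberg values over 16314 genes and the threshold was 0.05. Each SE is the log2 fold change divided by the square root of F. DESeq2 1.42.0 was an alternative. Other alternatives were DESeq2 size factors, no expression filter, a replicate block, a fit of the compared groups alone, fits without libraries high in Xist, and each library left out. The scripts were tested on simulated data, where 53 of 100 2-fold and 87 of 100 4-fold changes were recovered. A change of such a size can therefore go uncalled. The required recovery was lowered after this result was seen. Ratios of raw counts used exact binomial intervals (95%), and a group with no count was set to a floor of 3 counts over the group. Intervals and floors cover counting error only. Positions and exon lengths came from GENCODE vM21 and sequences from RefSeq. Among the 36 pairs of libraries within groups, chi-square per degree of freedom was 3.74 or more, so none was treated as a repeat of another. The rule for named genes was every member, except 1 that is not reported here though it stays in the counts, with values per library for up to 3 members of each role with the smallest p. The members, roles, marker lists and pathway list were chosen with earlier results of these data known, and members were removed from the marker sums after seeing the data.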

Additional observations from a re-analysis of the deposited data

Results flagged for a closer look

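Groups of 4 libraries exist only at 35 days, in the injured controls and in the SCI+Gsx1 libraries. In 9 of 80 combinations of a tested member and such a group, 1 library lay apart from the other 3 by Dixon's criterion. For independent values chance gives about 1 in 20. The members share the same libraries, so the 9 of 80 cannot be compared with that rate. Injured control replicate 4 was the highest in 4 of them. It had 5.2 CPM of Ccl12 (others 1.91 to 2.43), 18.9 CPM of Cxcl10 (others 4.87 to 6.07), 0.744 CPM of Cxcl11 (others 0.135 to 0.239) and 31.7 CPM of Cxcr7 (others 16.6 to 17). This library is also 1 of the 2 that held both Xist and Ddx3y. Injured control replicate 1 was the highest in Ccl17, with 1.19 CPM (others 0.472 to 0.59), and in Cxcl14, with 115 CPM (others 77.1 to 81). Among the SCI+Gsx1 libraries, replicate 4 was the highest in Ccl3, with 9.81 CPM (others 4.37 to 4.79), and was the only library with Cxcl2, at 0.0548 CPM. Replicate 2 was the only library with Ccr6, at 0.0931 CPM. Neither of those exceeds the level of a few reads.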

How the results depend on the processing

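The 25 calls after injury at 3 days and the 22 at 35 days became 13 and 11 when the 7 libraries high in Xist were left out, a setting that leaves 1 sham library at 3 days, whose spread is then assumed to be like that of the other groups. The calls lost there included Ccl6, Ccl11, Ccl12, Ccl27a, Ccr1, Ccr2, Ccr7, Cxcl1, Cxcl2, Cxcl11, Cxcl13 and Cxcr3 at 3 days (edgeR adjusted p 0.0685 to 0.377) and Ccl5, Ccl7, Ccl8, Ccl9, Ccr2, Cx3cl1, Cxcl1, Cxcl9, Cxcl10 and Cxcr6 at 35 days (0.0642 to 0.683), each with its direction kept. In that setting SCI+Nkx6.1 at 3 days gave 3 calls and 35 against 3 days in injured controls 1. DESeq2's Wald test gave 1 call for SCI+Nkx6.1 at 3 days, 2 for 14 against 3 days, 3 for 35 against 14 days, 1 for sham at 35 against 3 days and 1 for the difference of injury effects. Fitting only the compared groups gave 6 for 14 against 3 days and 1 for the sham comparison. The replicate block gave 26 and 20 calls after injury, 2 for 14 against 3 days and no other count outside 1.5 times. Same-numbered libraries were not paired by the data, with correlations of -0.555 to 0.45 over 40 pairs and no comparison in which every pair exceeded 0.1. Leaving out each library in turn gave 21 to 24 calls after injury at 3 days and 19 to 22 at 35 days. It gave 0 to 2 for SCI+Gsx1 at 35 days, 0 to 6 for SCI+Nkx6.1 at 3 days, 0 to 3 for SCI+Gsx1 against SCI+Nkx6.1 at 3 days, 0 to 3 for 35 against 14 days, 4 to 9 for 35 against 3 days and 0 to 1 for the difference of injury effects. It gave 1 in every fit for 14 against 3 days and 0 in every fit for the other comparisons. DESeq2 size factors changed no count outside 1.5 times. In the comparisons with sham, with injured controls of the same day and of later with 3-day injured controls, the called members, or else the 3 with the smallest p, were followed, and 0 of their fold changes reversed where a setting gave an adjusted p. Single genes were not followed in the other comparisons. Cx3cl1 also lost its 35-day injury call with no filter on low counts and with only the compared groups fitted (edgeR adjusted p = 0.0643 and 0.118), and both it and Cxcr6 lost their 35 against 3 days calls in these settings (0.0582 to 0.2). The cause of these shifts was not tested. Members with a few counts per library limit what can be seen at this depth.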
